A study of Mus musculus with 8 samples.

Results

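The 9 genes described here belong to the transforming growth factor beta (TGF-beta) pathway. They encode its ligands, their receptors and coreceptors, and 2 of the proteins that hold the ligands latent. They are Tgfb1, Tgfb2, Tgfb3, Tgfbr1, Tgfbr2, Tgfbr3, Eng, Ltbp1 and Ltbp3. Each was found by its symbol in the authors' deposited table, where each has 1 of the 23284 gene entries. RNA was sequenced from mouse embryonic stem (ES) cells of 2 lines, each a single clone of mixed strain. The 4 groups were clone 6, which carries a Ctcfl transgene, with doxycycline (2 µg/ml for 48 h) and without it, and clone 7, which lacks the transgene, with the same doxycycline treatment and without it. Ctcfl is the germline paralog of the DNA-binding insulator protein Ctcf. All groups were kept on embryonic fibroblast feeders and moved off them for those 48 h, and each group holds 2 libraries, labelled as biological replicates. With 1 clone a line, an effect of the transgene cannot be told apart from other differences between the clones. The authors deposited 1 value per gene and group, in FPKM (fragments scaled to transcript length and to the mapped fragments), so levels carry no SD, library depth is unknown, and levels of different genes are compared per length.

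TGF-beta ligands are secreted as dimers wrapped in their own cleaved propeptide. In this latent form they are tethered to the matrix by latent TGF-beta binding proteins, and integrins or proteases release them. A freed ligand binds the type II receptor Tgfbr2, which phosphorylates the type I receptor Tgfbr1, and this kinase activates Smad2 and Smad3. ES cells are known to rely more on the related ligand Nodal for Smad2 signalling, and TGF-beta itself is known for matrix, contractile and growth-arrest responses in differentiated cells.

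FPKM values summed to between 717813 and 737443 in the 4 groups. Ctcfl itself had 0.995 FPKM in clone 6 given doxycycline, against 0.403 FPKM in untreated clone 6, a difference that was not called (p = 0.0062, q = 0.296 in the authors' deposited table), and clone 7 had 0.498 and 0.513 FPKM. All 9 ES cell markers reached 1 FPKM, and Pou5f1, the core pluripotency factor, was between 1011 and 1116 FPKM. Nanog, Sox2 and Zfp42 of that list were called between the lines in both settings, where 1.52% of all genes were called with doxycycline and 1.37% without it. Their directions differed. With doxycycline Nanog (128 against 68.5 FPKM) and Zfp42 (88.3 against 20.1 FPKM) were higher in clone 6 than in clone 7. Sox2 was lower (121 against 196 FPKM), and the directions were the same without doxycycline. The 12 fibroblast markers summed to 416 and 422 FPKM in clone 6 with and without doxycycline and to 327 and 326 FPKM in clone 7, with 10 at 1 FPKM or more and none at 0 in all groups. Since these are bulk samples, fewer cells of a type and less RNA per cell cannot be told apart.

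Tgfb1 was the most abundant of the 9 genes and the one whose level changed with doxycycline. It stood at 23.6 FPKM in clone 6 with doxycycline, against 12.7 FPKM in clone 6 without it, and at 10.5 FPKM in clone 7 with doxycycline, against 10.8 FPKM in clone 7 without it. Clone 6 with doxycycline was thus the high group, and the other 3 groups lay within 10.5 to 12.7 FPKM. In the authors' deposited table the change in clone 6 was 1.86-fold (log2 0.89, SE 0.23, 95% interval 1.37-fold to 2.53-fold, p = 0.0004, q = 0.0429). That q was adjusted over all genes of all 6 pairwise comparisons, while an adjustment limited to this 1 comparison gave 0.433 from the p of the authors' deposited table, so the call is lost there. With doxycycline in both lines, the difference of clone 6 over clone 7 was 2.24-fold (log2 1.16, SE 0.28, q = 0.00812 in the authors' deposited table), and it passed under either adjustment. Clone 6 with doxycycline was also 2.19-fold over clone 7 without it (q = 0.0200 in the authors' deposited table). The remaining pairs were not called. Clone 6 without doxycycline was 1.18-fold over clone 7 without it (95% interval 0.822-fold to 1.68-fold, p = 0.394 in the authors' deposited table), and doxycycline in clone 7 gave 0.977-fold (0.644-fold to 1.48-fold, p = 0.912). These comparisons share groups, so they are not independent of each other.

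**Figure D1:**
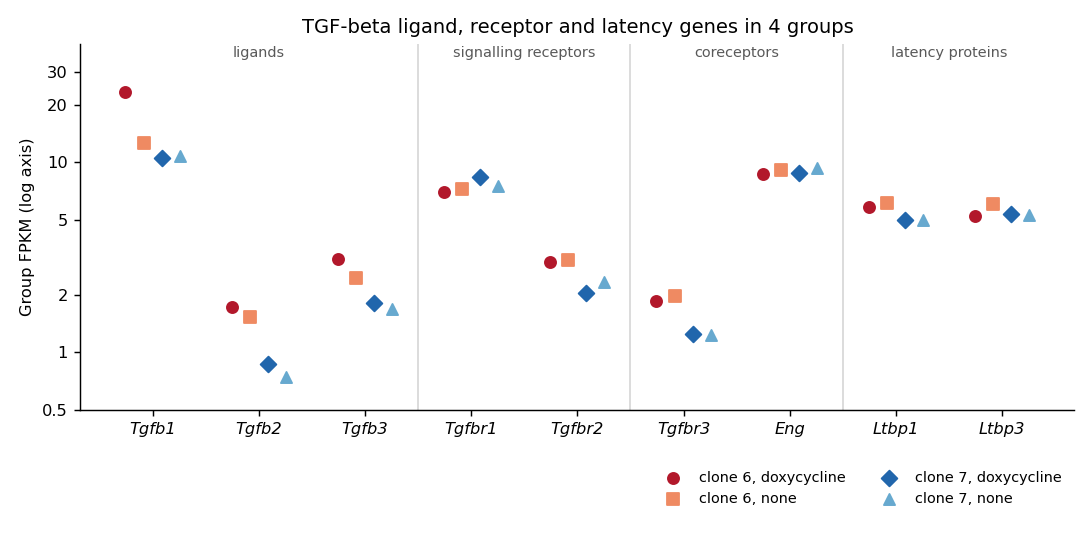
Group FPKM on a log axis for the 9 genes, grouped by role; each point is the authors' single value for 1 group of 2 libraries, so there are no error bars. Tgfb1 in clone 6 with doxycycline, at 23.6 FPKM, stands above its other 3 points, while the points of Eng lie within 8.72 to 9.31 FPKM.

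Whether the response itself differed between the lines was tested directly, from the deposited fold changes and their SEs. The log2 change of Tgfb1 was 0.89 in clone 6 and -0.03 in clone 7. The difference was 0.93 (SE 0.38, 95% interval 0.18 to 1.68), with a p of 0.0152 before adjustment by a two-sided normal test across all genes. It did not pass Benjamini-Hochberg adjustment over 12634 genes, which gave 0.99999. None of the 9 genes passed this test, for which 18 of 12634 genes (0.142%) were called, and the unadjusted p-values of the other 8 ran from 0.710 for Tgfbr1 to 0.971 for Eng. With 2 libraries a group the normal test is an approximation. An unadjusted p under 0.05 was found for 58 of the 12634 genes (0.459%), below the 5% that the test gives where no gene differs. Taken over all genes the test was thus conservative, which does not show that it is so for each gene. With SEs from the deposited p, 0 genes were called, and the SE for Tgfb1 was 0.393 in place of 0.382.

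The Tgfb1 and Tgfb2 promoters are shown because Ctcfl binds DNA, and because these ligands had the highest called and uncalled fold differences among the 9 genes. Both are 250 bases before the gene start from RefSeq, build GRCm38.p6, written 5′ to 3′ on the gene's strand. The Tgfb1 window is chr7:25686752-25687001 (plus strand) and the Tgfb2 window chr1:186705990-186706239 (minus strand). Capitals mark matches on either strand to GGNGGCAG, the central letters of the Ctcf motif, of which the Tgfb2 window has none.

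Tgfb1: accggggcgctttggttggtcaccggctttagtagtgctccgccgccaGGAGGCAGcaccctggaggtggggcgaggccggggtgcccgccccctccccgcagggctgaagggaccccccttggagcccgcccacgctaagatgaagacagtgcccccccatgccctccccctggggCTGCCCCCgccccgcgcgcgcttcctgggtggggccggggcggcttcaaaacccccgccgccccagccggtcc

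Tgfb2: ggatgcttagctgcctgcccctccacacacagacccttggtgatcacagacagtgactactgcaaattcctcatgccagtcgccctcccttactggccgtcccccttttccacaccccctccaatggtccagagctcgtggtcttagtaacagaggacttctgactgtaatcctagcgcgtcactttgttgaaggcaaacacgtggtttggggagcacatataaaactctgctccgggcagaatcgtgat

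In the Tgfb1 window GGNGGCAG matched as GGAGGCAG, starting 202 bases before the gene start, and on the other strand as CTGCCCCC, starting 73 bases before it. A match was present in 9.93% of 32851 mouse promoter windows of the same length, and in 1 of the 9 windows that RefSeq gives for 7 of the 9 genes, the Tgfb1 window. The GC box GGGCGG matched 5 times in the Tgfb1 window, once overlapping the second GGNGGCAG match, and 0 times in the Tgfb2 window; 32.7% of all windows held it. CCCTC matched 2 times in the Tgfb1 window and 3 times in the Tgfb2 window, against 60.5% of all windows with a match. The palindromic Smad element GTCTAGAC, which 0.167% of all windows held, matched in neither. GC content was 75.2% in the Tgfb1 window and 53.6% in the Tgfb2 window, against a median of 52.4% over all windows. The part of this base composition in the matches was not tested. These are matches of letters, and binding was not measured.

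Tgfb1 (chromosome 7, 25687002 to 25705077 in the GENCODE M21 annotation of GRCm38, plus strand) overlaps no other annotated gene, and no other entry shares its deposited locus. The 3 entries on each side were read beside it. Upstream, the RNA exosome subunit gene Exosc5 had 94.6 FPKM in treated and 94.3 FPKM in untreated clone 6. Tmem91, a transmembrane protein gene, had 0.626 FPKM in treated and 0.830 FPKM in untreated clone 6. It was not tested there or between clones without doxycycline. B9d2, a gene of the ciliary transition zone that ends less than 1 kb before Tgfb1 starts, was at 4.40 and 4.56 FPKM. Downstream, the coiled-coil gene Ccdc97 was at 18.5 and 19.0 FPKM, the nuclear ribonucleoprotein gene Hnrnpul1 at 105.3 and 100.8 FPKM, and the receptor tyrosine kinase gene Axl at 12.7 and 11.8 FPKM. None of these neighbours was called in any of the 4 comparisons. Between 0% and 1.52% of all genes were called in them, so the lack of calls is near that background. The log2 changes of the 5 tested neighbours in clone 6 lay between -0.05 and 0.11 in the authors' deposited table.

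**Figure D2:**
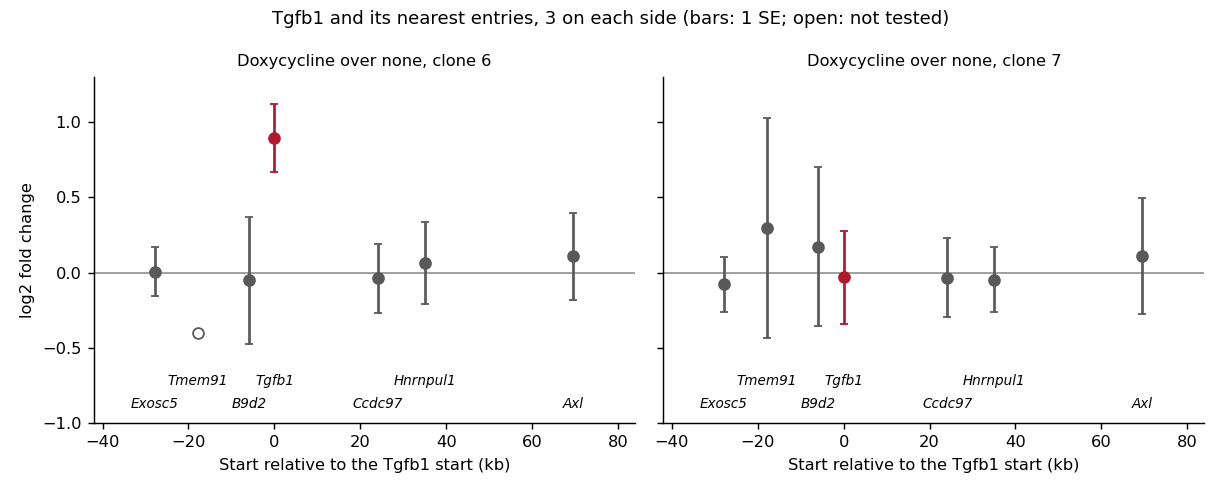
Log2 fold change with doxycycline (y axis) of Tgfb1, in red, and its nearest entries, 3 on each side, against their start relative to the Tgfb1 start in kb, in clone 6 (left) and clone 7 (right); bars are 1 SE from the deposited statistics and the open point was not tested. In clone 6 Tgfb1 is at 0.89 and the 5 tested neighbours lie between -0.05 and 0.11.

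Among 12523 genes that reached 1 FPKM in at least 1 group and whose entry holds a single gene symbol, the 5 with the pattern most like Tgfb1 over the 4 groups were sought by Euclidean distance of centred log2(FPKM + 1). Since likeness to Tgfb1 chose them, their values are a description, given here for 4 of the 5. The closest was Jak2, the cytokine receptor kinase, at a distance of 0.129, with 5.30 and 2.53 FPKM with and without doxycycline in clone 6 and 2.18 and 1.87 FPKM in clone 7. The adaptor gene Shf followed at 0.204, with 16.6 and 10.7 FPKM in clone 6 and 8.49 and 7.91 FPKM in clone 7. Msgn1, a factor of presomitic mesoderm, was at 1.34 and 0.412 FPKM in clone 6 and listed at 0 in clone 7 (distance 0.226). The epidermal gene Lce1g had 1.38 and 0.647 FPKM in clone 6 and 0.185 and 0.261 FPKM in clone 7 (0.231). Jak2 was among the genes the authors' deposited table called with doxycycline in clone 6, with a q of 0.00812. Adjusted within that comparison alone, the call of Jak2 does not hold. Shf (q = 0.732 in the authors' deposited table), Lce1g (q = 0.99958 there) and Msgn1 were not called with doxycycline in clone 6. Msgn1 and Lce1g had low FPKM, where the 1 added to each value weighs more on the likeness.

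**Figure D3:**
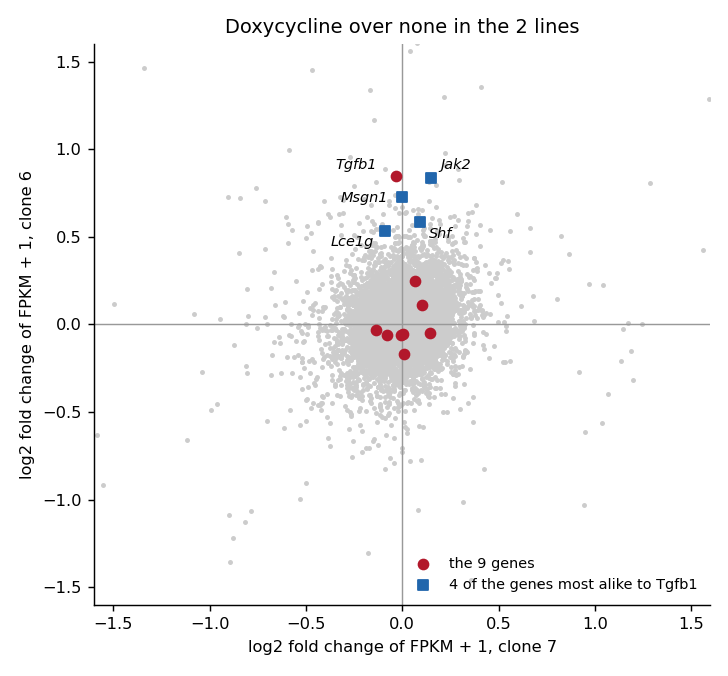
Log2 fold change of FPKM + 1 with doxycycline in clone 6 (y axis) against clone 7 (x axis) for all 12566 entries that reached 1 FPKM in some group, also those with several or damaged symbols (grey; 121 lie outside the axes), the 9 genes (red) and 4 of the genes most alike to Tgfb1 (blue squares). Tgfb1 lies above the dense part of the grey points on the axis for clone 6 and near 0 on that for clone 7, apart from the other 8 red points.

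The other ligands were low. Tgfb2, which is known for its role in heart and skeletal development, was at 1.74 and 1.54 FPKM in clone 6 with and without doxycycline and at 0.869 and 0.743 FPKM in clone 7. Both clone 6 values were higher than both clone 7 values. Without doxycycline clone 6 was 2.07-fold over clone 7 (log2 1.05, SE 0.65, p = 0.0116, q = 0.441 in the authors' deposited table), and with doxycycline 2.00-fold (log2 1.00, SE 0.67, p = 0.0204, q = 0.610). Neither passed the q threshold. The deposited statistic and p do not give the same error here: the 95% intervals from the statistic reach 5.04-fold and 4.97-fold and include 1, while those from the deposited p run from 1.18-fold to 3.64-fold and from 1.11-fold to 3.61-fold and leave 1 out. Of the 36 values of the 9 genes, 6 had an unadjusted p under 0.05, and for 4 of them the statistic's interval includes 1: these values of Tgfb2, and between the lines Tgfb3 with and Tgfbr3 without doxycycline. With 1 added to each FPKM, the log2 difference of Tgfb2 is 0.54 without and 0.55 with doxycycline. With doxycycline in clone 6 Tgfb2 was at 1.13-fold (0.532-fold to 2.41-fold, p = 0.546 in the authors' deposited table). Tgfb2 lies on chromosome 1 (186622792 to 186705989, minus strand).

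Tgfb3, the ligand of palate fusion (chromosome 12, 86056745 to 86079041, minus strand), was at 3.10 and 2.46 FPKM in clone 6 with and without doxycycline and at 1.82 and 1.69 FPKM in clone 7. Its order was that of Tgfb2, with clone 6 with doxycycline highest and clone 7 without it lowest. Clone 6 was 1.71-fold over clone 7 with doxycycline (log2 0.77, SE 0.53, p = 0.0446, q = 0.913 in the authors' deposited table) and 1.45-fold without it (log2 0.54, SE 0.52, p = 0.140), and neither passed. The ratio for doxycycline in clone 6 was 1.26-fold (0.689-fold to 2.32-fold, p = 0.268 in the authors' deposited table). Tgfb3 overlaps the span of Ttll5, and the sources used here do not give the strand setting of the counting, so its reads may include those of Ttll5. Summed over the 3 ligands, transcript levels were 28.4 and 16.7 FPKM in clone 6 with and without doxycycline and 13.2 FPKM in both groups of clone 7. Tgfb1 made up 83.0% and 76.1% of the sum in clone 6 and 79.7% and 81.6% in clone 7.

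The type I receptor Tgfbr1 and the type II receptor Tgfbr2, both kinases, were not called in any comparison. Tgfbr1 (chromosome 4, 47353222 to 47414931, plus strand) was at 6.95 and 7.22 FPKM in clone 6 with and without doxycycline and at 8.41 and 7.52 FPKM in clone 7. Doxycycline gave 0.963-fold in clone 6 (0.559-fold to 1.66-fold, p = 0.801 in the authors' deposited table). Clone 6 over clone 7 with doxycycline was 0.827-fold (0.465-fold to 1.47-fold). Tgfbr2 (chromosome 9, 116084293 to 116175360, minus strand) was at 2.98 and 3.07 FPKM in clone 6 and at 2.04 and 2.35 FPKM in clone 7. Its difference between the lines with doxycycline was 1.46-fold (0.762-fold to 2.80-fold, p = 0.107 in the authors' deposited table), and with doxycycline in clone 6 it was at 0.973-fold (p = 0.890). Tgfbr1 was thus lowest where Tgfb1 was highest, by a margin within its interval. This was not particular to Tgfbr1, since Eng (8.72 FPKM) and Ltbp3 (5.25 FPKM) were also lowest in that group. The type I receptor had the higher level per length in each group, and its share of the summed FPKM of the receptor pair was 70.0% and 70.2% in clone 6 and 80.5% and 76.2% in clone 7.

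Of the coreceptors, betaglycan (Tgfbr3, chromosome 5, 107106570 to 107289629, minus strand), which presents ligand and is needed by Tgfb2 in particular, was not called in any comparison. It was at 1.87 and 1.98 FPKM in clone 6 with and without doxycycline and at 1.25 and 1.24 FPKM in clone 7, so both clone 6 values were above both clone 7 values. Without doxycycline clone 6 was 1.59-fold over clone 7 (log2 0.67, SE 0.51, p = 0.0386 in the authors' deposited table), and with doxycycline by a log2 difference of 0.58 (p = 0.0993 there), neither of which passed. Endoglin (Eng, chromosome 2, 32646595 to 32682669, plus strand), a coreceptor known from endothelium, was the most even of the 9 genes. It was at 8.72 and 9.13 FPKM in clone 6 and at 8.74 and 9.31 FPKM in clone 7, with a highest value 1.07 times the lowest. Its interval with doxycycline in clone 6 was 0.525-fold to 1.74-fold (p = 0.874 in the authors' deposited table). The deposited locus of Eng also holds Fpgs, with which its annotated span overlaps. Of 7 endothelial markers, the defining cadherin Cdh5 was between 0.101 and 0.117 FPKM and endomucin (Emcn) was at 0.0202 FPKM or less. The 3 that reached 1 FPKM were the adhesion receptor Pecam1 (4.66 and 4.57 FPKM in clone 6 with and without doxycycline, 8.57 and 7.19 FPKM in clone 7), the angiopoietin receptor Tek (1.297 and 1.356 FPKM, 2.498 and 2.497 FPKM) and the tight junction gene Cldn5 (1.54 and 1.26 FPKM, 1.11 and 0.885 FPKM). The list summed to 8.13 and 7.98 FPKM in clone 6 and 13.3 and 11.7 FPKM in clone 7. The 6 blood markers summed to between 7.08 and 8.37 FPKM, of which Cd68 was the 1 marker at 1 FPKM or more.

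Neither gene of the latent TGF-beta binding proteins was called in any comparison. Ltbp1 (chromosome 17, 75005568 to 75392512, plus strand), which anchors latent complexes in the matrix, was at 5.85 and 6.13 FPKM in clone 6 with and without doxycycline and at 4.96 and 4.99 FPKM in clone 7. It was 0.954-fold with doxycycline in clone 6 (0.629-fold to 1.44-fold, p = 0.753 in the authors' deposited table) and 1.18-fold in clone 6 over clone 7 with doxycycline (0.742-fold to 1.87-fold, p = 0.330). Ltbp3 (chromosome 19, 5740904 to 5758532, plus strand), which also binds the propeptide, was at 5.25 and 6.03 FPKM in clone 6 and at 5.34 and 5.29 FPKM in clone 7. Its ratio for doxycycline in clone 6 was 0.871-fold (0.452-fold to 1.68-fold, p = 0.706 in the authors' deposited table). Summed, the FPKM of both latency genes was 11.1 and 12.2 in clone 6 with and without doxycycline, groups in which the ligand sum was 28.4 and 16.7 FPKM.

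**Figure D4:**
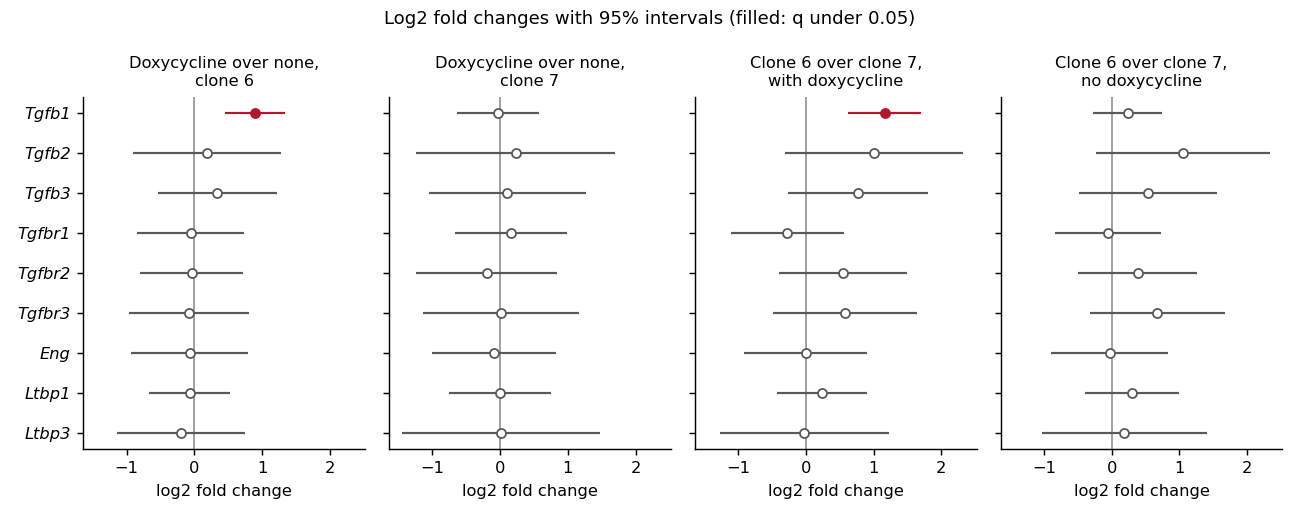
Log2 fold changes (points) with 95% intervals from the deposited statistics (bars) for the 9 genes in 4 comparisons; filled red points had q under 0.05. Only Tgfb1 is filled, at 0.89 for doxycycline in clone 6 and at 1.16 for clone 6 over clone 7 with doxycycline.

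All 9 genes were tested by the authors in each of the 4 comparisons. They were chosen with earlier results of these data known, so their counts beside those of all genes are a description. With doxycycline in clone 6, 1 of 9 was called, Tgfb1, against 14 of 13003 genes overall (0.108%), and 6 of 9 lay below 0. The members' median on the log2(FPKM + 1) scale was -0.05, against 0.00104 for all genes. With doxycycline in clone 7, 0 of 9 were called by the authors' deposited test, against 0 of 12908 (0%), and 0 of 9 had an unadjusted p under 0.05 (14 of all genes). Between clones with doxycycline, 1 of 9 was called, Tgfb1 again, against 199 of 13064 (1.52%), and 3 of 9 had an unadjusted p under 0.05, where 7.90% of all genes did. Between clones without doxycycline, 0 of 9 were called by the authors' deposited test, against 179 of 13047 (1.37%), with 2 of 9, Tgfb2 and Tgfbr3, at an unadjusted p under 0.05 (6.59% of all genes). The median between clones was 0.35 with doxycycline and 0.25 without it, against -0.02 and -0.002 for all genes. Over the 5 members that reached 5 FPKM the median was -0.003 with doxycycline and 0.16 without it, so its size with doxycycline rests on the 4 low members. For the mixed pairs, 211 of 13060 genes (1.62%) were called for clone 6 with doxycycline over clone 7 without it, where Tgfb1 was the 1 member called. In the opposite pair, clone 6 without doxycycline over clone 7 with it, 179 of 13045 (1.37%) were called and no member was, with Tgfb2 at p = 0.048 in the authors' deposited table.

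A further 4 lists hold other genes of the pathway. These lists too were chosen with earlier results known, so their shares beside those of all genes are a description. In the list of TGF-beta response genes, all 28 were tested, and with doxycycline in clone 6, 0 were called higher and 1, Id2, was lower, at 22.8 FPKM in treated against 39.8 FPKM in untreated clone 6 (q = 0.0462 in the authors' deposited table), where 0.108% of all genes were called. Id2 encodes a protein that blocks helix-loop-helix factors from binding DNA, a gene that bone morphogenetic proteins raise and TGF-beta lowers in epithelial cells. This call does not hold when p is adjusted within the comparison alone. The list median was 0.05, with 16 of 28 above 0. An unadjusted p under 0.05 was found for 2 of 28 in clone 6, against 1.08% of all genes, and in clone 7 no gene of the list was called or had an unadjusted p under 0.05. The smooth muscle actin gene Acta2 had 131 FPKM in treated and 103 FPKM in untreated clone 6 (p = 0.0611 in the authors' deposited table). The most abundant members were the intermediate filament gene Vim (268 and 260 FPKM), fibronectin (Fn1, 207 and 184 FPKM) and E-cadherin (Cdh1, 194 and 187 FPKM), with p of 0.794, 0.290 and 0.754 in the authors' deposited table.

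Between the lines, a few response genes were higher in clone 6. With doxycycline, 4 of 28 were called higher and 0 lower, and without it 3 of 28 higher and 0 lower, where 1.52% and 1.37% of all genes were called in either direction. An unadjusted p under 0.05 was found for 10 of 28 with and 8 of 28 without doxycycline, against 7.90% and 6.59% of all genes. The actin-binding gene Tagln was at 219 FPKM in clone 6 and 106 FPKM in clone 7 with doxycycline, and at 188 and 101 FPKM without it. The matricellular gene Cyr61 had 117 FPKM in clone 6 and 66.1 FPKM in clone 7 given doxycycline, and 107.6 and 64.3 FPKM in the untreated pair. The cell cycle inhibitor Cdkn1a had 63.7 FPKM in treated clone 6 against 35.9 FPKM in treated clone 7, and 63.7 FPKM against 35.4 FPKM in the untreated pair. Acta2 was called with doxycycline, at 131 and 68.1 FPKM (q = 0.00812 in the authors' deposited table), and not without it, at 103 and 65.3 FPKM (q = 0.131). Tagln, Cyr61 and Cdkn1a were thus called in both settings. Whether these differences relate to Tgfb1 was not tested. The list medians were 0.25 with and 0.19 without doxycycline. The 12 fibroblast markers, of which this list holds 3 (Col1a1, Col1a2 and Col3a1), summed to 416 FPKM in clone 6 and 327 FPKM in clone 7 with doxycycline and to 422 and 326 FPKM without it. None was called, and 7 of the 10 tested were higher in clone 6 with doxycycline and 9 of 10 without it. Thy1, Col3a1 and Pdgfra were lower in clone 6 with doxycycline. The part of these markers in the differences was not tested.

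**Figure D5:**
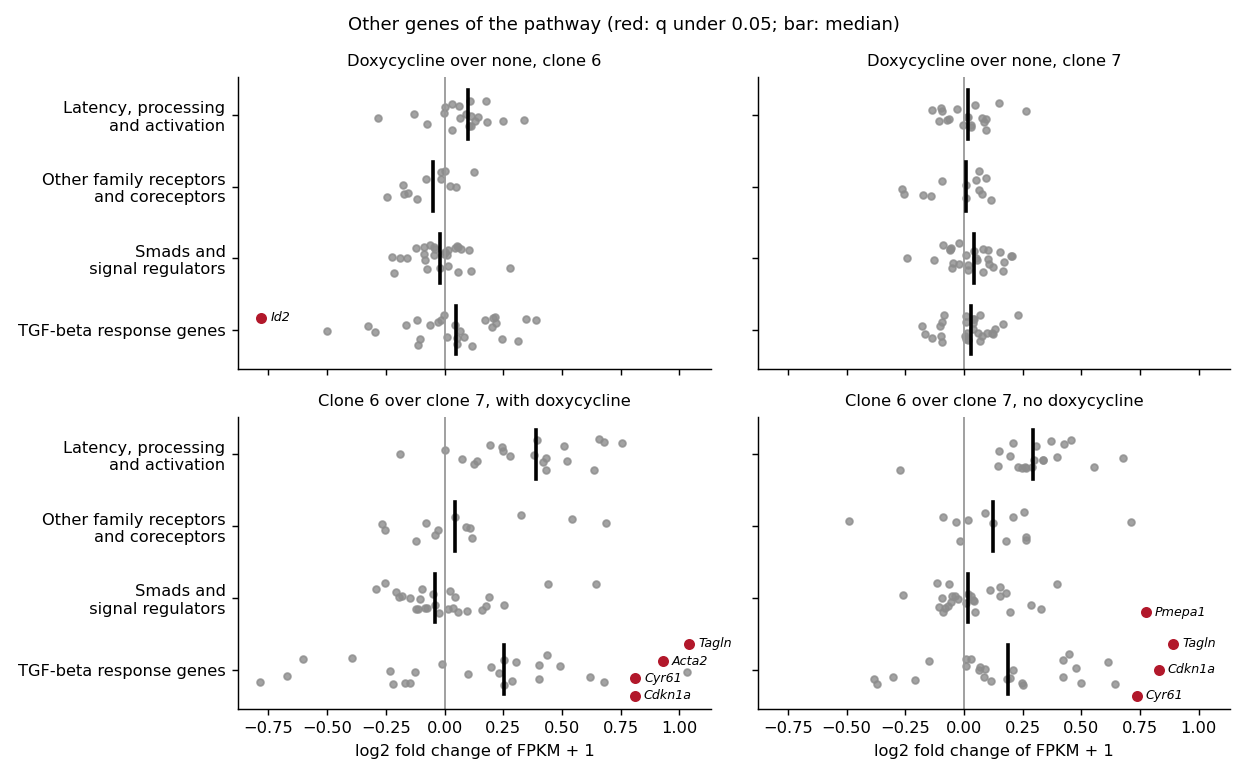
Log2 fold change of FPKM + 1 for members of 4 pathway lists that reached 1 FPKM in 1 of the groups compared (points; vertical bars are list medians) in 4 comparisons, with called genes (q under 0.05) in red and named. Id2 is the 1 red point for doxycycline in clone 6, and Tagln, Cyr61 and Cdkn1a are red in both comparisons between the lines.

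Genes for latency, processing and release gave 0 calls in any of the 4 comparisons, with 20 or 21 tested of 26 listed and the share called among all genes between 0% and 1.52%, so 0 of 20 is near that background. By the authors' deposited test, an unadjusted p under 0.05 was reached by 6 of 21 between the lines with doxycycline, 2 of 20 without it, and 0 for doxycycline in either line, against 7.90% and 6.59% of all genes between the lines. Their medians were 0.10 with doxycycline in clone 6 (16 of 20 above 0) and 0.01 in clone 7 (11 of 19). Between the lines they were 0.39 with doxycycline and 0.29 without it, with 19 of 20 above 0 in both, against -0.02 and -0.002 for all genes. The 1 gene below 0 was Ltbp4, another latency protein, at 52.8 and 46.6 FPKM in clone 6 with and without doxycycline and 60.4 and 56.5 FPKM in clone 7. The most abundant were the integrin subunit gene Itgb1 (104 FPKM in clone 6 and 85.3 FPKM in clone 7 with doxycycline), biglycan (Bgn, 93.6 and 89.0 FPKM) and thrombospondin (Thbs1, 104 and 72.3 FPKM), which can activate the latent ligand. Thbs1 had the lowest p of these 3, 0.0094 with and 0.0154 without doxycycline (q = 0.386 and 0.511 in the authors' deposited table). The fibroblast marker sums given above, whose list shares Dcn with this one, were higher in clone 6 as well. Not every marker was, with 7 of 10 tested higher with doxycycline and 9 of 10 without it. Their part was not tested.

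Receptors of the wider family gave 0 calls among 15 tested of 16 in all 4 comparisons, with 1 of 15 at an unadjusted p under 0.05 in each comparison between the lines and 0 for doxycycline, which is near the shares of all genes just given. They had medians of -0.05 and 0.01 for doxycycline in clone 6 and clone 7 and of 0.04 and 0.12 between the lines with and without doxycycline. The Nodal coreceptor Tdgf1 was at 447 and 531 FPKM in clone 6 with and without doxycycline, the activin receptor Acvr2b at 22.7 and 22.6 FPKM, and the bone morphogenetic protein receptor Bmpr1a at 19.5 and 19.7 FPKM. Among Smads and signal regulators, 27 of 28 were tested, and 1 was called in 1 comparison. This was Pmepa1, a feedback inhibitor that TGF-beta induces, at 14.8 FPKM in clone 6 and 8.23 FPKM in clone 7 without doxycycline (q = 0.0145 in the authors' deposited table). With doxycycline Pmepa1 was at 12.8 FPKM in clone 6 and 7.85 FPKM in clone 7 and was not called, and in clone 6 it stood at 0.867-fold with doxycycline. The most abundant regulators, the receptor-binding immunophilin gene Fkbp1a (188 and 198 FPKM in clone 6 with and without doxycycline), the Smad partner Foxh1 (98.9 and 95.4 FPKM) and the corepressor Tgif1 (82.9 and 80.4 FPKM), had p between 0.658 and 0.820 in the authors' deposited table. The list medians were -0.02 and 0.04 for doxycycline in clone 6 and clone 7 and -0.04 and 0.02 between the lines with and without it.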

How the data were processed

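Per the file header, the authors deposited a single Cuffdiff-type gene table, with 23284 gene entries in each of 6 pairwise comparisons. The submitters' processing notes name TopHat2 2.0.8, Cufflinks 2.1.1 and build mm10. The role of each, the annotation, strand setting and normalization mode were not given in the sources used here. Reads were 75 bp, single-end. Expression is the authors' FPKM per group, taken to combine both libraries since its name starts both of their titles. The deposited log2 fold changes were turned to doxycycline over none and clone 6 over clone 7. The deposited test statistic is a score, used for SEs (fold change over statistic) and for 95% intervals by the normal approximation. The smallest deposited p-value was 5e-05, and the deposited q-value matched Benjamini-Hochberg adjustment of all 78127 tests (largest difference 5.21e-07). Genes were called where the authors made a test and q was under 0.05. The p-values rest on these libraries alone and on the error model of the deposited test, not on a spread measured here. The spreadsheet error texts in 4221 fold change cells touch none of the 9 genes.

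The difference between responses was tested with a two-sided normal test across 12634 genes. Members were matched by symbol. The members and lists were chosen with earlier results of these data known. Of each list, the 3 genes highest in mean FPKM and all called genes are named. Cd68 and Ltbp4 were added after their values were seen. Of the genes most like Tgfb1, 1 is not reported here. Medians used log2(FPKM + 1) of genes that reached 1 FPKM in 1 of the groups compared. Alternatives were adjustment within a comparison, a q of 0.01, other FPKM minimums and pseudocounts, centring, and SEs from the p-value. Python 3.11.15, pandas 2.3.3, NumPy 2.4.6 and SciPy 1.17.1 were used.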

Additional observations from a re-analysis of the deposited data

How the results depend on the processing

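The call of Tgfb1 with doxycycline in clone 6 depends on the adjustment. The count of members called there was 0 when p was adjusted within the comparison alone (0 of all genes, smallest adjusted p 0.0929, 140 at an unadjusted p under 0.05) and 0 at a q threshold of 0.01 (7 of all genes), against 1 (14 of all genes) with the deposited q under 0.05. Its call between clones with doxycycline held under all 3 alternatives for that count. At a q of 0.01, calls over all genes were 125 between clones with doxycycline and 97 without it, against 199 and 179. SEs from the deposited p left 0 of all genes called for a difference between responses, against 18, with 26 at an unadjusted p under 0.05, where the p of Tgfb1 was 0.0182 by the normal test across all genes. Centring on the median of all genes turned the sign of 4 of 36 log2 values, all uncalled and near 0: Tgfbr3 and Ltbp3 in clone 7 (-0.0119 and -0.0101), and Ltbp3 and Eng between clones with doxycycline (5.45e-05 and 0.0198). Pseudocounts of 1 and 0.1 changed no sign, but a pseudocount of 1 took Tgfb2 between clones to 0.54 without and 0.55 with doxycycline, against 1.05 and 1.00. Intervals from the deposited p, added after seeing the data, left out 1 for 4 uncalled values whose intervals from the statistic include it. No paired analysis was possible because the deposited values combine both libraries of a group, although the titles give the libraries of every group the same pair of tags, and for the same reason no replicate could be left out. Depth is unknown, so precision rests on the deposited statistics.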
